A study of Mus musculus with 2 samples.

Results

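The 10 genes described here are effectors of the Hippo pathway and targets of its coactivator YAP: the coactivators Yap1 and Wwtr1, the transcription factors Tead1, Tead2 and Tead3, the kinases Lats1 and Lats2, and the target genes Ctgf, Cyr61 and Amotl2. They were taken by name, out of 17840 genes listed in both expression tables, and all 10 were found, 2 of them under their older symbols (Ctgf is now Ccn2 and Cyr61 is now Ccn1). Messenger RNA was sequenced from mouse crypt cells sorted by GFP intensity as Lgr5-positive intestinal stem cells, without culture. The knockout library (Srcap KO) came from Srcap flox/flox; Lgr5-Cre+ mice treated with tamoxifen, and the wild-type library (WT) from Srcap+/+; Lgr5-Cre+ mice. The labels can be read either way as to whether the WT mice had tamoxifen too. The Cre is driven from Lgr5, so deletion starts in Lgr5-expressing cells. How many mice were used, their age and sex, and any pooling are not stated in the labels. Srcap encodes the ATPase of a remodelling complex that places the histone variant H2A.Z in chromatin. The comparison addresses how these transcripts differ between the KO and the WT library.

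There was 1 library per genotype, so no test between genotypes was possible. The intervals below cover counting error only, and the spread between mice is unknown. Counts of genes past 2-fold or 1.5-fold use values with 1 FPKM added unless stated, while folds of single genes have none added. Levels are FPKM, fragments per kilobase of transcript per 1000000 mapped fragments. Srcap itself was at 11.3 FPKM in the KO and 20.4 FPKM in the WT library, or 55.7% of the WT value. Its transcript was thus still present, and how complete the deletion was was not tested. The epithelial marker Epcam was at 711 FPKM in the KO and 706 FPKM in the WT library. Of 8 stem cell markers, all were lower in the KO library, with Lgr5 at 2.17 FPKM in the KO and 5.9 FPKM in the WT library. Of these markers 2 were past 2-fold, against 0.416% of the 11784 genes whose larger value reached 1 FPKM. Of 5 Paneth cell markers, which a stem cell sort should lack, the summed level was 17361 FPKM in the KO and 30721 FPKM in the WT library. Steps between low values put about 17100000 reads on genes in the KO library and 17200000 in the WT library. The labels give 59000000 reads per sample on average. The range of steps searched could not have returned so many, and the gap was not examined. Read numbers and counting intervals below rest on the lower figures.

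The Hippo pathway is a kinase cascade that holds back tissue growth. The LATS kinases phosphorylate YAP and its relative TAZ, encoded by Wwtr1, which keeps both proteins out of the nucleus. When they are not phosphorylated, YAP and TAZ bind TEAD factors on DNA and turn on genes such as Ctgf, Cyr61 and Amotl2. In the intestine the pathway is known for its part in crypt regeneration after injury. Much of its regulation acts on protein phosphorylation and location, which transcript levels do not measure.

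TEAD factors bind the core letters GGAATG, read as CATTCC on the other strand. These letters were searched on both strands in RefSeq promoter windows of GRCm38.p6, the assembly also called mm10, which run from 250 bases before to 50 bases after a start site. Windows for 8 of the 10 genes were used, all but Ctgf and Tead1. The core was present for 6 of these 8 genes (Yap1, Wwtr1, Tead3, Lats2, Cyr61 and Amotl2), against 16.6% of the 27025 genes with a window, and in 8 of their 12 windows, against 14.7% of all 32851 windows. The windows of Wwtr1 overlap, as do neighbouring windows of Tead3, while those of Lats2 do not. The core in both Wwtr1 windows is the same site. Tead2 and Lats1 had no match. The AP-1 letters TGAGTCA or TGACTCA were in none of the 12 windows and in 5.20% of all windows. A match of letters is a description and does not show binding.

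The upstream sequences of Cyr61 and Wwtr1 are shown as the most abundant gene and the gene with the highest fold. Each holds the 250 bases before the start site, on the minus strand of GRCm38.p6, at chr3:145649986-145650235 for Cyr61 and chr3:57575911-57576160 for Wwtr1. Capitals mark the TEAD core.
Cyr61: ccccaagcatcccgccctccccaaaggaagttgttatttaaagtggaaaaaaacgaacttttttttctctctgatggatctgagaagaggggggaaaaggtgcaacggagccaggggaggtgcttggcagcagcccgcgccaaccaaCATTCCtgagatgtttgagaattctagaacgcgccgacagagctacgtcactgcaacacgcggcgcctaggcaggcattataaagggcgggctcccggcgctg
Wwtr1: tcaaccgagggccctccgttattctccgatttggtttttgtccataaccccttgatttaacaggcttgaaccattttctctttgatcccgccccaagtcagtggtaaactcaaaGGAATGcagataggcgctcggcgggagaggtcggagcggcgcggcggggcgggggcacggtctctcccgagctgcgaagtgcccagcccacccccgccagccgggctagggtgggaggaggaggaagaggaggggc
The core began 103 bases before the start site of Cyr61 and 136 bases before that of Wwtr1. The 30 bases around the core are shown for the other genes that held one, with Tead3 at the first of its start sites. The second start site of Tead3 had 3 matches, which are not shown as sequence. The stretches shown lie at chr9:102717727-102717756 on the plus strand for Amotl2, and on the minus strand at chr9:8004720-8004749 for Yap1, chr14:57746102-57746131 for Lats2 and chr17:28350970-28350999 for Tead3.
Amotl2: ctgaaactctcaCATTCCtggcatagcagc
Yap1: cgggagtctgcaGGAATGtagcgacgcgca
Lats2: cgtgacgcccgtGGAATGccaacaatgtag
Tead3: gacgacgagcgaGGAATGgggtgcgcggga
The core began 65 bases before the start site in Amotl2, 141 before it in Yap1 and 182 before it in Tead3. In Lats2 it began at base 5 after the start site, inside the transcript. The RefSeq span of the Amotl2 gene begins earlier than its window, at 102717091. The Amotl2 core thus lies before the start site used here but inside that span.

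**Figure D1:**
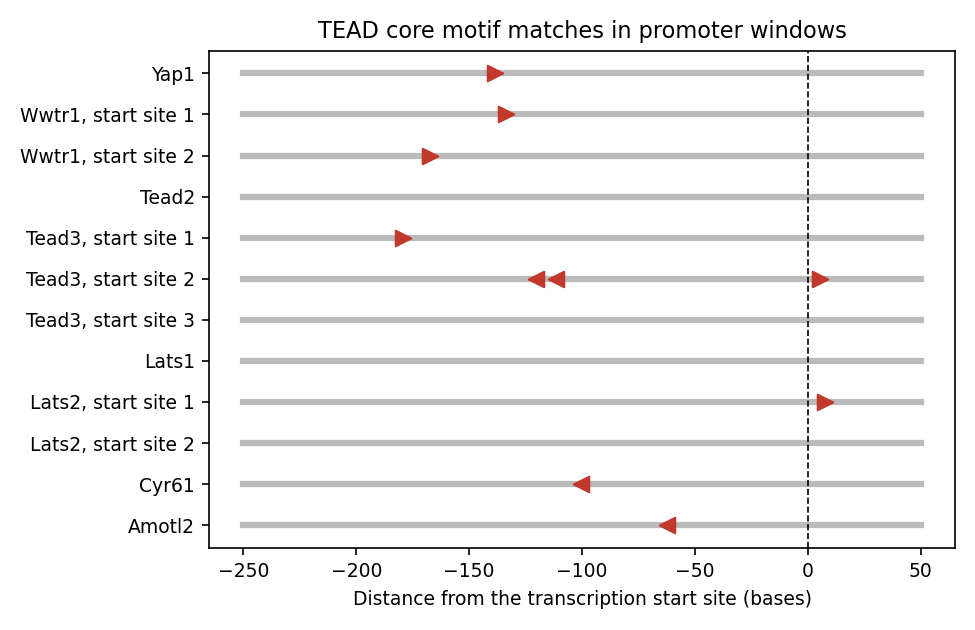
Matches to the TEAD core GGAATG (red triangles, pointing right on the gene's own strand and left on the other strand) along each RefSeq promoter window (grey bars), by distance from the start site in bases. Of the 12 windows, 8 hold a match, and the matches of Cyr61 and Amotl2 lie on the other strand within 103 bases of the start site used. The second start site of Tead3 has 3 matches, on both strands.

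With 1 FPKM added to each value, the 10 genes lay within 2-fold and were split in direction. On this scale 0 of 10 were at least 2-fold higher in the KO library, where 2.61% of the 11784 genes whose larger value reached 1 FPKM were. Likewise 0 of 10 were at least 2-fold lower, against 0.416% of those genes. At 1.5-fold, 4 of 10 were higher in the KO library (Wwtr1, Lats2, Cyr61 and Amotl2), against 8.05% of these 11784 genes, and 0 were lower, against 1.59%. Wwtr1 and Lats2 reached the minimum of 1 FPKM through the KO library only, so their place in this count follows in part from that filter. The log2 ratios ran from -0.43 for Ctgf to 0.67 for Amotl2, with 5 above and 5 below 0. Their median was 0.02, and that of these 11784 genes was also 0.02. Between Lats1 at 0.15 and Wwtr1 at 0.63 there was no gene of the group.

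The order of levels was nearly the same in both libraries, led by Cyr61, Yap1, Tead3 and Lats1 and ending with Lats2 and Wwtr1. Amotl2 was the exception, in place 5 in the KO and place 8 in the WT library. In the KO library, Amotl2 and Tead2, Tead2 and Tead1, Ctgf and Lats2, and Lats2 and Wwtr1 were neighbours that did not differ beyond counting error. In the WT library this held for Tead1 and Ctgf and for Lats2 and Wwtr1. These comparisons rest on the shortest RefSeq-matched transcript of each gene, and those with Lats2 depend on the length assumed.

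**Figure D2:**
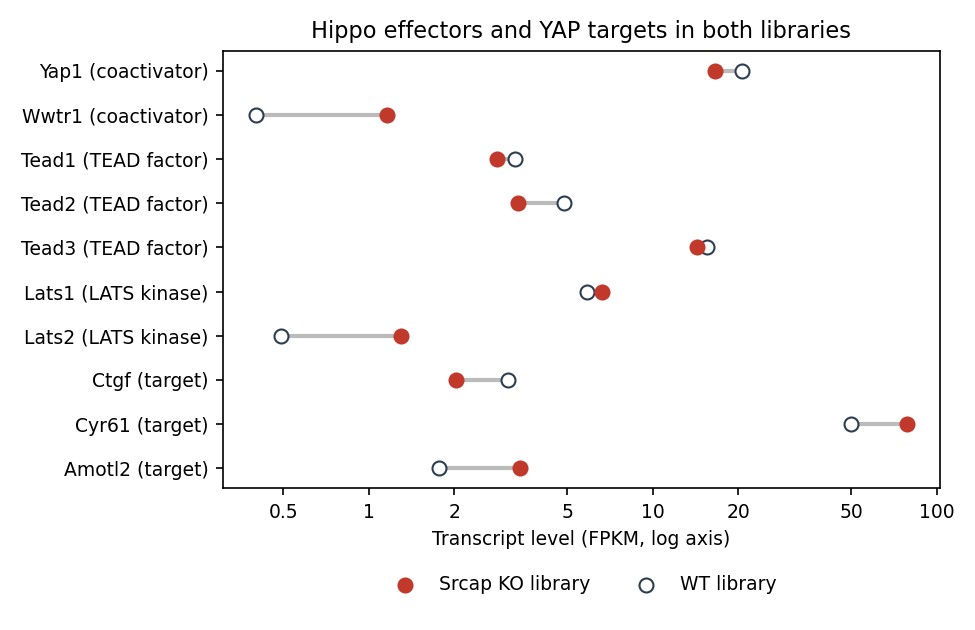
Transcript level in FPKM (log axis) of each gene in the Srcap KO library (filled red) and the WT library (open), with a grey line joining both. Levels span 1.16 to 78.6 FPKM in the KO and 0.4 to 49.7 FPKM in the WT library, and the longest lines belong to the lowly expressed Wwtr1 and Lats2.

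The coactivators differed in opposite directions. Yap1 (Entrez 22601, chromosome 9, 7931999 to 8004638), which encodes the main growth-promoting coactivator of the pathway, was at 16.5 FPKM in the KO and 20.5 FPKM in the WT library. This is 0.804 of the WT value, with a 95% counting interval of 0.743 to 0.869 from about 1161 KO and 1457 WT reads. Wwtr1 (Entrez 97064, chromosome 3, 57455644 to 57575910), which encodes TAZ, was at 1.16 FPKM in the KO and 0.4 FPKM in the WT library. The KO value was 2.90-fold the WT value (interval 1.93 to 4.56, about 90 KO and 31 WT reads), the highest fold of the group. With the pseudocount its log2 ratio was 0.63. Wwtr1 made up 6.56% of the summed Yap1 and Wwtr1 level in the KO and 1.91% in the WT library, so Yap1 was the main transcript of the pair in both. The ratio of Yap1 to Wwtr1 within a library needs no scaling between libraries, and was 14.2 in the KO and 51.3 in the WT library, 0.277 times as large (interval 0.183 to 0.420).

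The 3 TEAD factors of the group, DNA-binding partners of YAP and TAZ, all had KO values below their WT values. Tead3 (Entrez 21678, chromosome 17, 28331671 to 28350805) was the most abundant, at 14.3 FPKM in the KO and 15.5 FPKM in the WT library. Its fold of 0.924 had an interval of 0.826 to 1.03, which includes 1. Tead2 (Entrez 21677, chromosome 7, 45215792 to 45233468) was at 3.36 FPKM in the KO and 4.87 FPKM in the WT library. Its fold was 0.690 (interval 0.537 to 0.881), the only one of the 3 whose interval left out 1 at the shortest transcript length. Tead1 (Entrez 21676, chromosome 7, 112679356 to 112906784) was at 2.82 FPKM in the KO and 3.28 FPKM in the WT library, with a fold of 0.860. Its interval was 0.687 to 1.08 with the shortest RefSeq-matched transcript and 0.760 to 0.973 with the longest, so whether it holds 1 depends on the transcript length assumed. Their log2 ratios were -0.11 for Tead3, -0.43 for Tead2 and -0.16 for Tead1. Tead3 over Tead2 was 4.26 in the KO and 3.18 in the WT library, 1.34 times as large (interval 1.03 to 1.74). Tead3 over Tead1 was 5.08 in the KO and 4.73 in the WT library, and the interval of their quotient, 0.840 to 1.37, held 1.

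Of the LATS kinases, which phosphorylate YAP and TAZ, Lats1 was the more abundant in both libraries. Lats1 (Entrez 16798, chromosome 10, 7681200 to 7716461) was at 6.62 FPKM in the KO and 5.86 FPKM in the WT library, with a fold of 1.13 (interval 1.02 to 1.25). Lats2 (Entrez 50523, chromosome 14, 57689662 to 57746212), which is itself also a YAP target, was at 1.3 FPKM in the KO and 0.49 FPKM in the WT library. The KO value was 2.65-fold the WT value. Its RefSeq-matched transcripts run from 786 to 5191 bases, so the number of reads is uncertain. The interval was 0.965 to 6.99 with the shortest (about 17 KO and 7 WT reads) and 1.85 to 3.82 with the longest (about 115 KO and 44 WT reads). Of the annotated exon bases of Lats2, 42.4% are shared with Gm49361 on the same strand, so its reads may be split between both. Lats2 made up 16.4% of the summed level of both kinases in the KO and 7.72% in the WT library. Lats1 over Lats2 was 5.09 in the KO and 12.0 in the WT library, 0.426 times as large, and with the shortest transcript the interval was 0.176 to 1.03. This interval was not computed with the longest transcript, which gives more reads and so a narrower interval.

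The targets differed in direction. Cyr61 (Entrez 16007, chromosome 3, 145646971 to 145649985), a secreted matrix protein and also an immediate early gene, was the most abundant of the 10 genes, at 78.6 FPKM in the KO and 49.7 FPKM in the WT library. Its fold was 1.58 (interval 1.49 to 1.68, about 2711 KO and 1730 WT reads). Amotl2 (Entrez 56332, chromosome 9, 102717091 to 102733418), a junction protein that binds YAP and holds it back, was at 3.42 FPKM in the KO and 1.77 FPKM in the WT library. Its fold was 1.93 (interval 1.56 to 2.40), and its log2 ratio of 0.67 with the pseudocount was the highest of the group. Ctgf (Entrez 14219, chromosome 10, 24595442 to 24598683), a secreted relative of Cyr61, was at 2.03 FPKM in the KO and 3.09 FPKM in the WT library. Its fold was 0.657 (interval 0.490 to 0.869), so it lay on the other side of Cyr61 and Amotl2. Reads of Ctgf cannot be told apart from those of the antisense transcript Gm15270, with which it shares 23.2% of its exon bases, unless strand was counted. Cyr61 over Ctgf was 38.7 in the KO and 16.1 in the WT library, 2.41 times as large (interval 1.81 to 3.19).

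**Figure D3:**
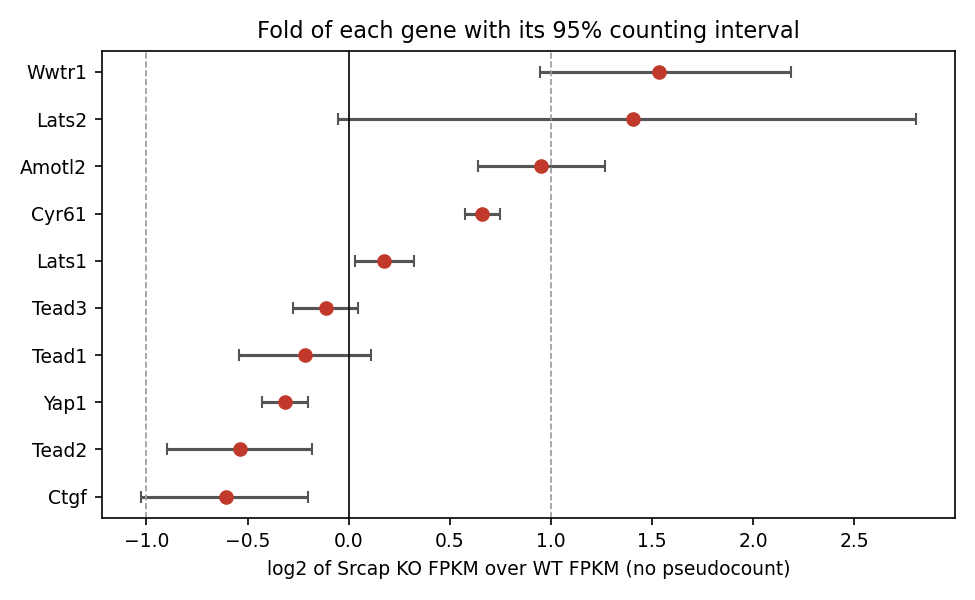
Srcap KO over WT fold of each gene on a log2 axis, without a pseudocount, with bars for the 95% counting interval from the shortest RefSeq-matched transcript. Dashed lines mark 2-fold. The intervals of 7 genes leave out 0 on this axis, 4 of them on the higher side (Wwtr1, Amotl2, Cyr61 and Lats1), and those of Lats2, Tead3 and Tead1 hold it.

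**Figure D4:**
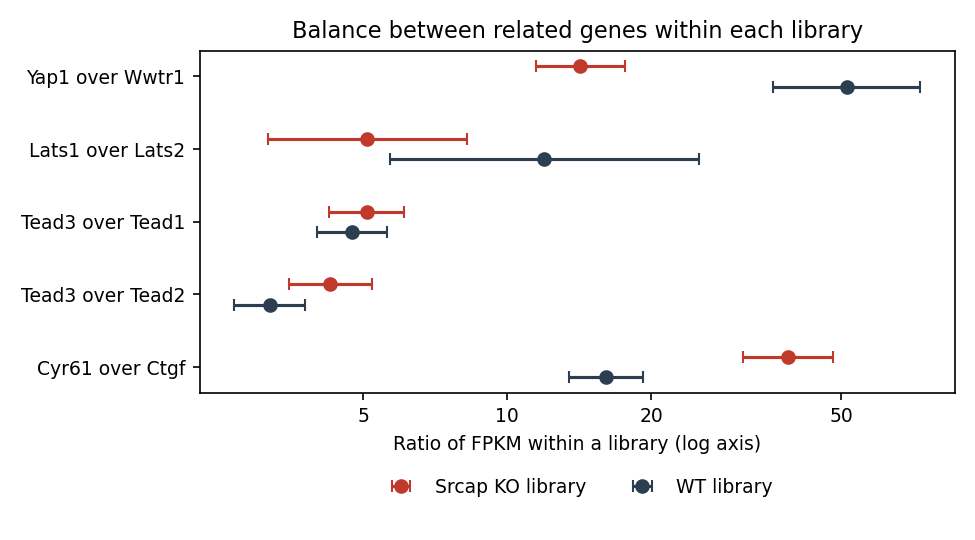
Ratio of FPKM between related genes within 1 library (log axis), with the Srcap KO library (red) above the WT library (dark) and bars for the 95% counting interval. Yap1 over Wwtr1 was 14.2 in the KO and 51.3 in the WT library, and Cyr61 over Ctgf was 38.7 in the KO and 16.1 in the WT library. All bars use the shortest RefSeq-matched transcripts. On that basis the intervals of both libraries overlap for Lats1 over Lats2 and for both Tead ratios. The intervals for Lats1 over Lats2 depend on the Lats2 length assumed and were not computed with the longest.

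Without a pseudocount, 2 of 10 genes (Wwtr1 and Lats2) were at least 2-fold higher in the KO library, against 6.03% of the same 11784 genes, and 0 were lower, against 1.06%. This rule was chosen after the data had been seen, and both genes were below 1 FPKM in the WT library.

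Of 35 other pathway names, Map4k6 is an older name of Mink1, and Vgll1 and Vgll2 were looked up by symbol without a match. The other 32 genes were measured, and 25 of them reached 1 FPKM in at least 1 library. With 1 FPKM added, 0 of these 25 were at least 2-fold higher, against 2.61% of the 11784 genes, and 0 were lower, against 0.416%. These shares are so low that 0 of 25 is near the background. At 1.5-fold 0 were higher, against 8.05%, and 0 were lower, against 1.59%. The 7 genes below 1 FPKM in both libraries are too low to compare, and some of them differ by 2-fold or more without the pseudocount, such as Amotl1 at 0.66 FPKM in the KO and 0.16 FPKM in the WT library. With the pseudocount, the log2 ratios of all 32 ran from -0.35 to 0.52 with a median of 0.08, against 0.01 for all 17840 genes. Of the 32, 22 were above 0 and 9 below, and Map4k5 was at 2.88 FPKM in both. The core kinases and adaptors (Stk3, Stk4, Sav1, Mob1a and Mob1b), which activate LATS, ran from -0.18 to 0.36, with a median of 0.02. Mob1a was at 21.8 FPKM in the KO and 21.6 FPKM in the WT library.

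Of 18 upstream regulators, 15 reached 1 FPKM, and with the pseudocount 0 of these 15 were past 1.5-fold. Of the 11784 genes, 8.05% were past it on the higher side and 1.59% on the lower side. For so few genes, 0 of 15 is near these shares. Nf2, the tumour suppressor Merlin that recruits LATS, was at 26.7 FPKM in the KO and 25.5 FPKM in the WT library. The adaptor Rassf1 was at 26.3 FPKM in the KO and 20.3 FPKM in the WT library. Among kinases that can act in place of or above the Hippo kinases, Mink1 was at 26.6 FPKM in the KO and 25.5 FPKM in the WT library. Taok3 was at 23.8 FPKM in the KO and 22.0 FPKM in the WT library, and Taok2 at 14.5 FPKM in the KO and 15.0 FPKM in the WT library. Limd1, an adaptor that holds back LATS, was at 25.2 FPKM in the KO and 26.1 FPKM in the WT library. Vgll4, which competes with YAP for TEAD factors, was at 23.9 FPKM in the KO and 30.7 FPKM in the WT library, the lowest log2 ratio of the list at -0.35.

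Other YAP targets, taken from a signature shared by many cancers, were mostly low, and 16 of 17 had a higher KO than WT value, against 9217 of all 17840 genes. Of the 17, 10 reached 1 FPKM in either library and could be called, with Ccdc80 and Myof doing so through the KO library only. With 1 FPKM added, 1 of these 10 was at least 2-fold higher, against 2.61% of the 11784 genes, and 0 were lower, against 0.416%. At 1.5-fold 6 of the 10 were higher, against 8.05% of the 11784 genes. The median log2 ratio of the 17 was 0.27, against 0.01 for all 17840 genes, and that of the 10 was 0.70, against 0.02 for the 11784 genes. The gene past 2-fold was Ccdc80, a matrix protein gene also expressed by fibroblasts, at 3.12 FPKM in the KO and 0.29 FPKM in the WT library. Igfbp3, a secreted binding protein of insulin-like growth factors, was at 5.63 FPKM in the KO and 2.57 FPKM in the WT library. The receptor tyrosine kinase gene Axl was at 4.2 FPKM in the KO and 1.67 FPKM in the WT library, and tissue factor, F3, at 3.98 FPKM in the KO and 1.58 FPKM in the WT library.

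The most abundant of these targets was Gadd45a, a stress-inducible gene, at 35.9 FPKM in the KO and 23.2 FPKM in the WT library. Nuak2, a kinase gene, was at 12.9 FPKM in the KO and 12.2 FPKM in the WT library, nearly equal. Dock5, a Rac activator gene, was at 4.98 FPKM in the KO and 4.33 FPKM in the WT library, and Crim1, which binds BMPs, at 3.77 FPKM in the KO and 2.68 FPKM in the WT library. Myof, a membrane repair gene, was at 2.3 FPKM in the KO and 0.92 FPKM in the WT library. Ankrd1, a widely used YAP target, was at 0.07 FPKM in the KO and 0.03 FPKM in the WT library, too low for a comparison (it is named here after its values were seen).

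Markers of several other cell types were higher in the KO library, as were Wwtr1, Lats2, Amotl2 and most other YAP targets. All 5 Paneth cell markers went the other way, summing to 17361 FPKM in the KO and 30721 FPKM in the WT library. The part of other cell types in these differences was not tested. For the counts below, 2.61% of the 11784 genes were at least 2-fold higher. In bulk samples, more cells of a type and more RNA per cell cannot be told apart. All 6 fibroblast markers were higher in the KO library, 5 past 2-fold, with a summed level of 184 FPKM in the KO and 19.9 FPKM in the WT library. All 6 endothelial markers were higher, 2 past 2-fold, summing to 20.6 FPKM in the KO and 9.19 FPKM in the WT library. All 6 myeloid markers were higher, 5 past 2-fold, summing to 374 FPKM in the KO and 154 FPKM in the WT library. The 5 smooth muscle markers were higher with 0 past 2-fold, summing to 10.8 FPKM in the KO and 6.5 FPKM in the WT library.

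Of 5 mesothelial markers, all were higher and 4 were past 2-fold, with Upk3b at 26.1 FPKM in the KO and 1.27 FPKM in the WT library. Their sum, 2573 FPKM in the KO and 1818 FPKM in the WT library, is almost wholly Krt19, which gut epithelium expresses too. All 6 enterocyte markers were higher, 4 past 2-fold, summing to 432 FPKM in the KO and 172 FPKM in the WT library. The 5 T cell markers were higher with 0 past 2-fold, summing to 35.2 FPKM in the KO and 20.5 FPKM in the WT library. The 5 epithelial markers summed to 4665 FPKM in the KO and 3689 FPKM in the WT library, with 0 past 2-fold. Most of that gap is Krt8, at 2975 FPKM in the KO and 2097 FPKM in the WT library. Of the 5, 4 were higher and 1 was lower, Cdh1, at 186 FPKM in the KO and 190 FPKM in the WT library. No marker in these lists was at 0 in either library.

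Beside Cyr61, itself an immediate early gene, 10 of 10 other immediate early genes had positive log2 ratios, from 0.21 to 0.94. Of all 17840 genes, 9217 had positive ratios. Of the 10, 0 were past 2-fold, against 2.61% of the 11784 genes, and 4 were past 1.5-fold, against 8.05%. The summed level of the 10 was 4660 FPKM in the KO and 3312 FPKM in the WT library. Fos was at 1057 FPKM in the KO and 787 FPKM in the WT library, and Atf3 at 356 FPKM in the KO and 185 FPKM in the WT library. These genes also respond to the dissociation of tissue, and their part in the Cyr61 difference was not tested.

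**Figure D5:**
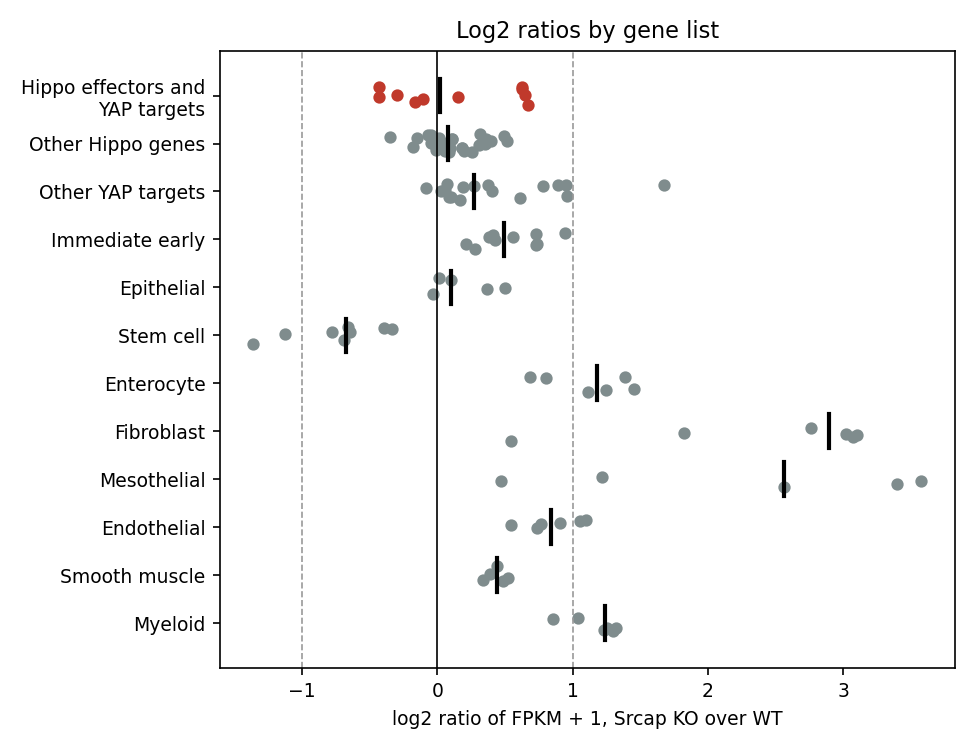
Log2 ratio of FPKM + 1, Srcap KO over WT, for every measured gene of each list (points, with vertical scatter for legibility) and the list's median (black bar). Dashed lines mark 2-fold. The 10 Hippo effectors and YAP targets (red) lie between -0.43 and 0.67, the other Hippo genes around 0.08, and the fibroblast and mesothelial markers have the highest medians. The Paneth cell and T cell lists are not drawn.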

How the data were processed

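RNA was sequenced as single-end 50 bp reads on a BGISEQ-500, 59000000 per sample on average, per the labels' protocols. For each library the authors deposited a table of 17840 genes with FPKM as its unit, as the file headers name it. The submitters' processing notes name HISAT, Bowtie2, RSEM and mm10. Tool versions and roles, the annotation and strand use were not given in the sources used here.

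Both tables were joined on Entrez identifier, and 17795 identifiers matched the RefSeq gene table of GRCm38.p6, which gave coordinates. Log2 ratios are Srcap KO over WT after adding 1 FPKM, so changes of low genes are understated. Calls were made at 2-fold with the larger value at 1 FPKM or more. Folds of single genes have no pseudocount.

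The step between low values, taken as 1 read, was 0.0585 FPKM kb in the KO and 0.058 in the WT library, from 214 and 209 genes with a single GENCODE M21 transcript shorter than 1500 bases and a product of FPKM and length in kb below 0.4. At these steps 75.2% and 74.6% of values lay less than 0.2 reads from a whole number. Each step was picked, within a preset range, because it gave the highest such share, so the share is no check on it. The range left out the smaller step that 59000000 reads would give. Reads per gene were derived from the steps with the shortest GENCODE transcript matched to a RefSeq mRNA. Intervals of folds are 95% exact (Clopper-Pearson) binomial, and those of ratios between genes and of the quotients of such ratios are normal on the log scale. All are approximate, since the authors' lengths are not used here.

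The genes and lists were chosen with earlier results of these data known. Named genes were all 10 members, and of each pathway list the called genes and the 8 most abundant. Python 3.11.15, pandas 2.3.3, numpy 2.4.6, scipy 1.17.1 and matplotlib 3.10.9 were used. Alternatives were other pseudocounts, filters, folds and scalings.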

Additional observations from a re-analysis of the deposited data

How the results depend on the processing

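The direction of each of the 10 genes was the same under every alternative that gave it a value (pseudocounts of 0, 0.1 and 5 FPKM, other filters and 3 rescalings). The log2 ratio of Wwtr1 ranged from 0.19 to 1.54 and that of Lats2 from 0.20 to 1.41, and Cyr61 stayed between 0.60 and 0.74. The median over the 10 genes, 0.02, lay near 0 and its sign was not stable. It became -0.11 over the 3 genes at 10 FPKM or more and -0.027 after rescaling to the median, and reached 0.10 after rescaling to a sum of 1000000. The number of the 10 at least 2-fold higher was 0, became 2 with pseudocounts of 0.1 FPKM or 0, and 4 under a 1.5-fold rule. For other YAP targets it was 1, became 5 with pseudocounts of 0.1 FPKM or 0, 0 with 5 FPKM or a minimum of 10 FPKM, 6 under the 1.5-fold rule and 4 after rescaling to that sum. Over all genes, 308 were higher. The number became 656 with a pseudocount of 0.1 FPKM, 711 with none, 108 with 5 FPKM, 121 with the minimum of 10 FPKM, 949 at 1.5-fold and 472 after rescaling to the sum. The 49 lower genes became 110, 125, 23, 30 and 187 under the first 5 of these. The ratio without a pseudocount was added after the data had been seen. No scaling moved the median of all genes by over 0.1. Low values limit Wwtr1 and Lats2 most. No paired analysis was possible because each genotype had 1 library.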

Other observations

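Family totals that include genes outside the 10 were computed after their values had been seen. Tead4, the remaining TEAD factor, was at 0.58 FPKM in the KO and 0.49 FPKM in the WT library. All 4 TEAD genes summed to 21.1 FPKM in the KO and 24.2 FPKM in the WT library, of which Tead3 held 67.9% in the KO and 64.2% in the WT library. In the angiomotin family, whose proteins bind YAP at junctions, Amot was at 6.62 FPKM in the KO and 7.44 FPKM in the WT library, while Amotl1 was at 0.66 FPKM in the KO and 0.16 FPKM in the WT library. Amotl2 thus held 32.0% of the family's summed level of 10.7 FPKM in the KO and 18.9% of 9.37 FPKM in the WT library.

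Among genes whose larger value reached 5 FPKM, the 5 nearest to Amotl2 in WT level and log2 ratio were Bex4, Tspan4, Sirpa, Fas and Zfp457. Over the 2 libraries likeness rests on a single ratio. Fas, a death receptor gene, was at 5.22 FPKM in the KO and 2.31 FPKM in the WT library. The log2 ratios of the 5 genes ran from 0.89 for Zfp457 to 0.99 for Bex4. All 5 reached 5 FPKM through the KO library only, with WT values of 2.06 to 2.35 FPKM. At such WT values the minimum alone puts their ratios above the 0.67 of Amotl2, which is itself below that minimum.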
